A study of Mus musculus with 6 samples.

Results

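The genes described here encode the CXC and CX3C chemokine ligands Cxcl1, Cxcl2, Cxcl5, Cxcl9, Cxcl10, Cxcl11, Cxcl12, Cxcl14, Cxcl16 and Cx3cl1. They were taken by gene symbol from the table of expression values of mouse fibroadipogenic progenitors (FAPs), mesenchymal cells that reside between muscle fibers. Of these 10 genes, 9 had values among the 16894 genes of the table, and Cxcl11, which RefSeq classes as a transcribed pseudogene in the reference mouse, was not analysed here. The study compared FAPs made senescent in culture with control FAPs, in 3 libraries each, and asked what senescent FAPs send to neighboring cells. All cultures came from male and female C57BL/6 mice aged 3 to 6 months, with no transgene named. Cells from the quadriceps, gastrocnemius and tibialis anterior were sorted as CD45-/CD31-/α7-integrin-/SCA-1+, a gate meant to leave out leukocytes, endothelial cells and muscle stem cells. They grew in serum-containing medium with basic fibroblast growth factor at low oxygen. Senescent FAPs had received 20 μM etoposide, a topoisomerase poison that breaks DNA, for 48 h and then 5 days of normal medium, while the control FAPs had received no etoposide and their vehicle is not given in the sources used here. Whether the 3 cultures of a group came from separate or pooled mice is not given either, so p values measure the spread between these cultures, which may be technical. Growth in culture with a single DNA-damaging drug limits the cells as a model of senescence in muscle.

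Chemokines are small secreted proteins that direct the movement of cells carrying matching G-protein-coupled receptors, and they are held on tissue surfaces by glycosaminoglycans. In the CXC family a single residue separates the first 2 of the conserved cysteines, and members fall into groups by receptor. Cxcl1, Cxcl2 and Cxcl5 act on CXCR2 and draw neutrophils. Cxcl9 and Cxcl10 act on CXCR3 of activated T cells and natural killer cells and are classical interferon-induced genes. Cxcl12, the ligand of CXCR4, retains hematopoietic and progenitor cells near mesenchymal stroma, and Cxcl14 is a largely constitutive chemokine of epithelia and stroma. Cxcl16, the ligand of CXCR6, and Cx3cl1 (fractalkine), the ligand of CX3CR1 on monocytes and macrophages, are made as transmembrane proteins on a mucin stalk and are released by the proteases ADAM10 and ADAM17.

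Expression is given in CPM, a normalized read count that includes edgeR's scaling between libraries. Genes received between 41412179 and 59912520 reads per library, so that a single read was worth 0.0167 to 0.0225 CPM. The 14776 genes that reached 0.5 CPM in 3 or more libraries were tested with limma for a difference between the groups in log2(CPM + 0.5). Differences are log2 values, positive when senescent FAPs were higher, and a gene is called higher or lower at a Benjamini-Hochberg adjusted p under 0.05 over all genes tested. This scale understates changes of genes with few reads. As a check of the senescent label, Cdkn1a (p21, a cell cycle inhibitor) went from 290 ± 40.5 CPM (SD, n = 3) to 1038 ± 21.4 CPM and the proliferation gene Mki67 from 158 ± 78.6 to 12.7 ± 5.49 CPM. Control replicate 2 stood apart from the other control libraries (chi-square per gene of 162 and 114, against 45.7 between controls 1 and 3). Likewise, senescent replicate 1 stood apart from the other senescent libraries (49.6 and 56, against 15.1 between replicates 2 and 3). The FAP markers Pdgfra (192 ± 58.4 in control and 218 ± 35.7 CPM in senescent FAPs) and Ly6a (372 ± 132 and 625 ± 76.0 CPM) were expressed in both groups. Of the 9 FAP markers listed, 3 were called higher, Ly6a, Cd34 and Dcn, and 1 lower, the collagen gene Col1a1 (15545 ± 5576 to 3116 ± 876 CPM). Over all genes tested, 21.8% were called higher and 24.3% lower. In bulk RNA, fewer cells of a type and less RNA per cell cannot be told apart.

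Senescent FAPs carried more Cxcl10, Cxcl9, Cxcl2 and Cxcl16 mRNA and less Cx3cl1 and, by a narrow margin, Cxcl12 mRNA than control FAPs. Cxcl1, Cxcl5 and Cxcl14 did not pass the test. Thus 4 of 9 ligands were called higher and 2 lower, in a comparison where 21.8% of all genes tested were called higher and 24.3% lower (3218 and 3592 genes, or 4992 and 1929 when libraries were divided by their plain totals). All 3 senescent libraries lay above all 3 control libraries for Cxcl2, Cxcl9, Cxcl10 and Cxcl16, a separation found for 26.5% of all genes tested, and below them for Cx3cl1 alone among the ligands, against 30.9% of all genes. The groups overlapped for the other 4 ligands, Cxcl12 included. The filter on low values bears on these counts. Cxcl2, Cxcl9 and Cxcl10 passed it only through their senescent libraries and so had to differ, whereas the other 6 ligands passed in both groups.

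**Figure D1:**
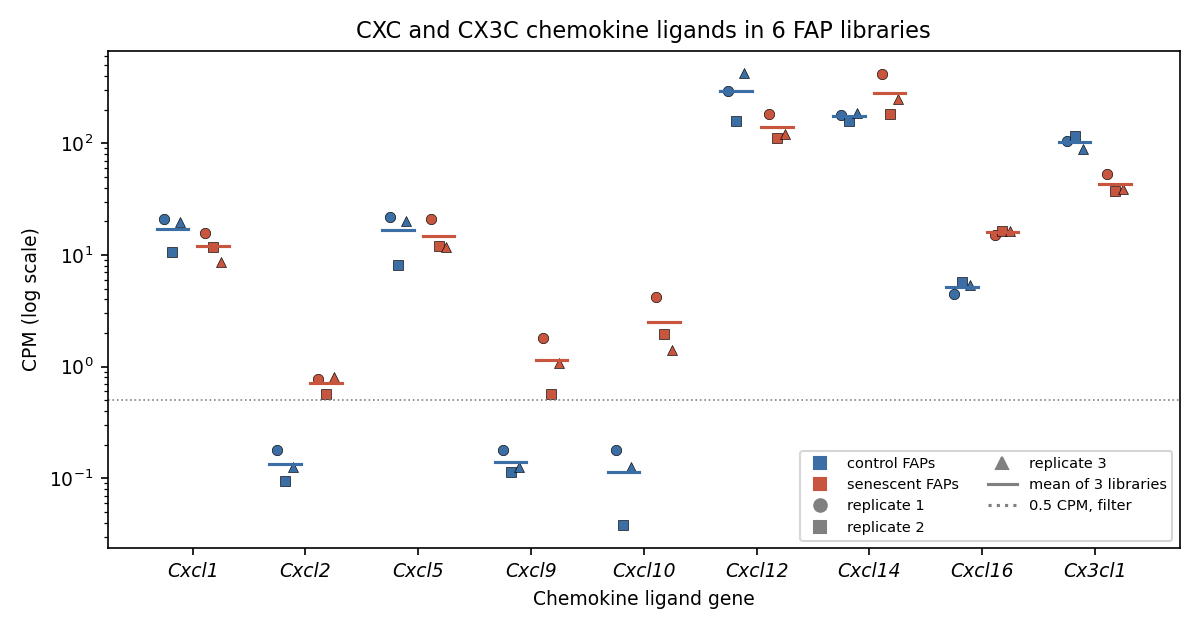
CPM (log axis) of the 9 ligand genes in each FAP library. Blue points are the 3 control libraries, red points the 3 senescent libraries, marker shapes give the replicate number, bars the group means, and the dotted line the 0.5 CPM filter. Cxcl12, Cxcl14 and Cx3cl1 sit at the top in both groups, and Cxcl2, Cxcl9 and Cxcl10 lie under the dotted line in every control library and above it in every senescent library.

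**Figure D2:**
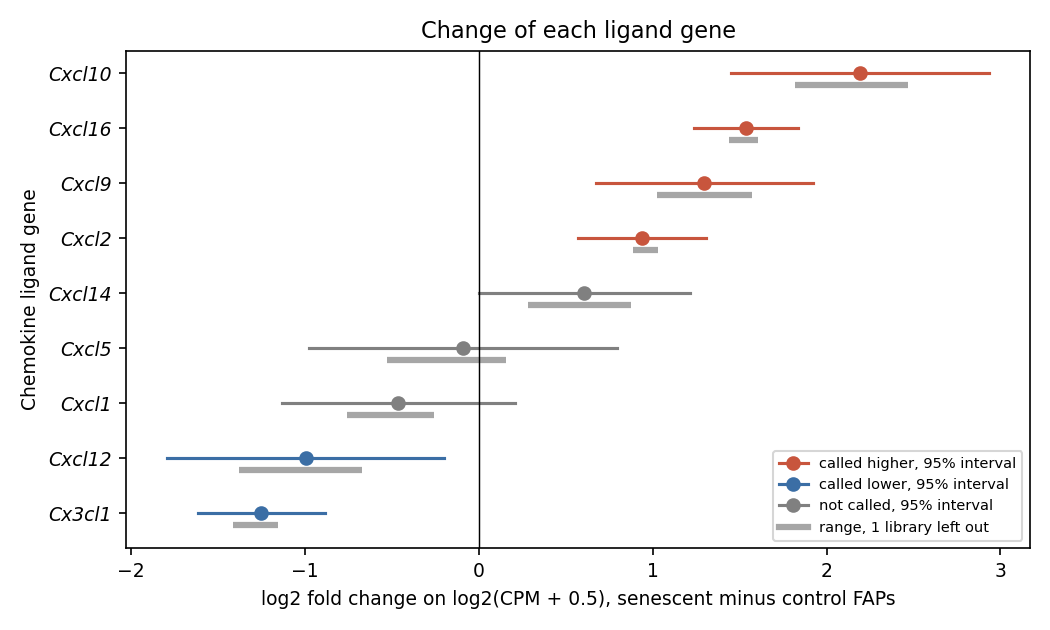
Log2 difference between senescent and control FAPs on log2(CPM + 0.5) for each ligand gene. Points are limma estimates, thin colored lines their 95% confidence intervals, and grey bars the range of estimates when each library was left out in turn. The estimates run from -1.25 (Cx3cl1) to 2.19 (Cxcl10), and the intervals of Cxcl1, Cxcl5 and Cxcl14 include 0, that of Cxcl14 barely.

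Among Cxcl1, Cxcl2 and Cxcl5, only Cxcl2, the least expressed of these 3, was called. Cxcl1, Cxcl2 and Cxcl5 lie on the same strand of chromosome 5 in GRCm38 (Cxcl5 at 90759360-90761624, Cxcl1 at 90891241-90893115 and Cxcl2 at 90903871-90905938). The promoters of the neighbors Cxcl1 and Cxcl2 are shown because both hold the same stretch of 11 bases matching the NF-κB motif. Cxcl2 was called higher and Cxcl1 was not, but Cxcl2 passed the filter only through its senescent libraries and so had to differ. RefSeq windows of GRCm38.p6, on the plus strand at chr5:90890995-90891294 and chr5:90903649-90903948, run from 250 bases before the transcript start to 50 after it, and capitals mark the motif.
Cxcl1: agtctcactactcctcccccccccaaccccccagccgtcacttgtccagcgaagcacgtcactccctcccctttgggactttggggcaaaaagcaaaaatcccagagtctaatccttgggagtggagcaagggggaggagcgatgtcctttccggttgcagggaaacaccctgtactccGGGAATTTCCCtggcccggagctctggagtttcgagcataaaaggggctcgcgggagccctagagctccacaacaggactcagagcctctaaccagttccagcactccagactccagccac
Cxcl2: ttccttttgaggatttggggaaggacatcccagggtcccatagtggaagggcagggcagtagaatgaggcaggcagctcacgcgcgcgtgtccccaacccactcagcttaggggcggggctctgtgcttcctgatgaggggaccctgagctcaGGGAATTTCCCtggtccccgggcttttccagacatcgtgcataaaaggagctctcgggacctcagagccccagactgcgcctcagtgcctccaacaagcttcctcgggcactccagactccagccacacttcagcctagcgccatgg

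Cxcl2 was measured at 0.179, 0.0951 and 0.126 CPM in control replicates 1 to 3, which is 8, 5 and 7 reads, and at 0.774, 0.569 and 0.810 CPM in the senescent replicates, which is 39, 34 and 36 reads. Every senescent library was above every control library, as it had to be for a gene that passed the filter only through its senescent libraries. The mean went from 0.133 ± 0.0422 to 0.718 ± 0.130 CPM (SD, n = 3), a ratio of 5.39. With limma the rise was 0.94 (SE 0.16, adjusted p = 0.00284), and the quasi-likelihood fit of edgeR to the recovered reads, in which the pseudocount has no part, gave 2.45. Even so, Cxcl2 remained a transcript of few reads, and 5.84% of its stretches of 50 bases also occur in Cxcl3, so some reads may have been split between these paralogs. Cxcl3, another CXCR2 ligand, was itself at 0.246 ± 0.113 CPM in control and 0.583 ± 0.317 CPM in senescent FAPs, with overlapping groups, and did not reach the level needed for testing.

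Cxcl1, a ligand made by many stromal cells on inflammatory stimulation, was at 20.8, 10.7 and 19.6 CPM in control FAPs and at 15.7, 11.7 and 8.71 CPM in senescent FAPs. Control replicate 2 lay among the senescent libraries, so the groups overlapped. The difference of -0.46 (SE 0.29) did not pass the test (limma adjusted p = 0.221), with a 95% confidence interval of -1.13 to 0.21. Without control replicate 2 the difference was -0.76 and passed (limma adjusted p = 0.0206), and limma's array weights, which lower the influence of variable libraries, gave -0.70.

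Cxcl5, a neutrophil attractant that in the mouse also goes by LIX, showed the same low control library. It was at 21.7, 8.16 and 20.1 CPM in control FAPs and at 21.1, 11.9 and 11.7 CPM in senescent FAPs. Each group held 1 or 2 libraries near 20 CPM and the remainder near 10, and the difference was -0.09 (SE 0.38, limma adjusted p = 0.860, interval -0.98 to 0.79). It lay between -0.53 and 0.15 when single libraries were left out, so no direction is given for it, and only array weights brought a call (-0.57). Within the numbers 1, 2 and 3, Cxcl5 differed by -0.04, 0.52 and -0.75 and Cxcl1 by -0.40, 0.13 and -1.13, both with the number 2 pair as the one that was higher in the senescent culture. Ppbp, a further CXCR2 ligand known from platelets, was at 2.58 ± 0.803 and 2.77 ± 0.626 CPM (limma adjusted p = 0.751).

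The CXCR3 ligands Cxcl9 and Cxcl10 were near the detection limit in control FAPs and rose in senescent FAPs. They are neighbors on the minus strand of chromosome 5 (92321347-92328079 and 92346638-92348889, GRCm38). Their promoters are shown because the windows differ in their matches to the motif letters searched. A window without a match may still hold related elements that these letters miss. The windows lie at chr5:92328030-92328329 and chr5:92348840-92349139 on the minus strand (RefSeq, GRCm38.p6). Capitals mark TATAAA in Cxcl9, and in Cxcl10 the core of the interferon-stimulated response element (ISRE, GAAANNGAAA) followed by a pair of NF-κB matches.
Cxcl9: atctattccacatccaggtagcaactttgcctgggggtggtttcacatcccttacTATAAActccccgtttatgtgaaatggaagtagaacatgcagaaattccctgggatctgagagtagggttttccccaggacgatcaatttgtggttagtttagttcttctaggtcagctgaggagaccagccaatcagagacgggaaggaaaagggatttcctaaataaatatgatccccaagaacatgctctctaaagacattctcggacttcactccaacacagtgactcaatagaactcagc
Cxcl10: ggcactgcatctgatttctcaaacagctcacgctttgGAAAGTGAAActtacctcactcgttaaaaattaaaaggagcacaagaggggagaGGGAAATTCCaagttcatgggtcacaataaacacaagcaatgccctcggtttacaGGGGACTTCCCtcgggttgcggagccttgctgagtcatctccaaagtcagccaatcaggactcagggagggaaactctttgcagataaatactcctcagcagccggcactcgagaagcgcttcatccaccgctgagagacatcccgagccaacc

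Cxcl10 was read 8, 2 and 7 times in control FAPs and 210, 117 and 62 times in senescent FAPs, which is 0.179, 0.0380 and 0.126 CPM against 4.17, 1.96 and 1.40 CPM. The lowest senescent library was many times the highest control library, and control replicate 2 was under the floor of 3 reads (0.0570 CPM in that library). The ratio of the means was 21.98. Cxcl10 passed the filter only through its senescent libraries and so had to differ. Its p value and rank are thus given as values only. With limma the rise was 2.19 (SE 0.32, adjusted p = 0.00156), larger than that of 99.1% of the genes tested, and edgeR on the recovered reads gave 4.48. Within same-numbered cultures it was 2.78, 2.19 and 1.60. Of the 2252 exonic bases of Cxcl10, 133 are shared with Art3, a gene on the opposite strand that was called higher too (1.76 to 3.06 CPM, a difference of 0.66). Per kilobase of exon, Art3 went from 0.447 to 0.777 CPM and Cxcl10 from 0.0507 to 1.11 CPM. The sources used here do not say if counting took account of strand.

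Cxcl9 had 8, 6 and 7 reads in control FAPs and 90, 34 and 48 in senescent FAPs. In CPM this was 0.179, 0.114 and 0.126 against 1.79, 0.569 and 1.08. The groups were apart, as they had to be, since Cxcl9 too passed the filter only through its senescent libraries. Senescent replicate 1 was highest for Cxcl9 as for Cxcl10, and the other 2 senescent libraries were in opposite order. The rise was 1.30 (SE 0.27, limma adjusted p = 0.00667), and the ratio of the means was 8.21. Per kilobase, Cxcl10 was 0.446 to 1.34 times Cxcl9 in control FAPs and 1.73 to 4.61 times in senescent FAPs, on so few control reads that these ratios are given as values only.

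Genes on the interferon side, a list of transcription factors, receptors, kinases and inhibitors, moved in both directions. Of 18 such genes tested, 6 were called higher and 3 lower, beside 21.8% and 24.3% of all genes tested. Their median difference was 0.14, beside a median of -0.03 over all genes. Irf7, which amplifies the type I interferon response, went from 2.46 ± 0.965 to 27.6 ± 5.86 CPM, a difference of 3.28. Stat2 and Irf9, which act in the type I response, rose by 1.34 (14.3 ± 2.93 to 36.5 ± 2.69 CPM) and 1.22. Ifngr1 and Ifngr2, the chains of the interferon-γ receptor, were called higher as well, by 0.39 and 0.42. The genes called lower were Socs3, an inhibitor of cytokine receptors (-1.12), Irf5 (-0.86) and Ifnar1, a chain of the type I receptor (-0.36). Irf1, an early inducer of CXCR3 ligands, was at 13.4, 9.07 and 13.4 CPM in control and 14.6, 14.9 and 16.0 CPM in senescent FAPs and was not called (0.35, limma adjusted p = 0.111).

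Most leukocyte markers tested were also higher in senescent FAPs. Cxcl9 and Cxcl10 are also made by macrophages, and although the sort removed CD45+ cells, 4 of the 5 leukocyte markers tested were called higher. Across all genes tested, 21.8% were called higher and 24.3% lower. Cd53 went from 1.98 ± 1.67 to 11.4 ± 2.74 CPM, Lyz2 from 1.77 ± 0.288 to 6.06 ± 0.690 CPM, and Cd68 from 1.47 ± 0.350 to 4.81 ± 0.867 CPM. Itgam (CD11b) had 3, 0 and 0 reads in control and 26, 50 and 24 reads in senescent FAPs, and it passed the filter only through the senescent libraries and so had to differ. Csf1r, the receptor for macrophage colony-stimulating factor, was not called (6.74 ± 0.573 and 7.56 ± 0.489 CPM). Summed over the 6 markers with values, of 13 symbols listed with older names included, the level was 10.9 to 13.9 CPM in control and 27.0 to 32.9 CPM in senescent libraries. Among the defining markers, Itgam was at 0 in 2 control libraries, while Ptprc, Adgre1, Tyrobp, Cd3e and S100a8 were not analysed here. The part of these cells in the rise of Cxcl9, Cxcl10 or any other ligand was not tested. Endothelial markers, 2 of 4 called higher and 1 lower, summed to 19.2 to 39.5 CPM in control and 23.8 to 31.2 CPM in senescent FAPs, and muscle markers, 1 of 3 higher and 1 lower, to 35.1 to 54.0 and 35.3 to 38.2 CPM.

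Genes of NF-κB subunits, their inhibitors and upstream components were called higher in 4 and lower in 2 of 19 cases, with a median difference of 0.04. Among all genes tested, 21.8% were called higher and 24.3% lower. The scaffold of the IκB kinase complex, Ikbkg, rose by 0.89, and the receptor Tlr4 by 0.78. Tnfaip3 and Nfkbia, inhibitors that NF-κB itself induces, rose by 0.47 and 0.54. The subunits Nfkb1 (0.01) and Rela (0.18) were not called, and Rel fell by 0.42. Il1r1, the receptor through which interleukin-1 induces Cxcl1, was called lower (-1.01), although its groups overlapped.

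The letters of the NF-κB motif were found in 3 of the 7 ligand promoters that RefSeq held, Cxcl1, Cxcl2 and Cxcl10, and in 8.46% of 32851 promoters of the same length. In Cxcl1 the match lay 71 to 61 bases before the start and in Cxcl2 97 to 87 bases before it, each read on both strands. In Cxcl10 they lay 159 to 150 and 104 to 94 bases before the start. The ISRE core was found in Cxcl10 (213 to 204 bases before the start) and in Cxcl14 (172 to 163), against 3.44% of all promoters. The gamma-activated site TTCNNNGAA was found in Cxcl14 (191 to 183 bases before the start) and in 8.30% of promoters, and TATAAA in Cxcl9 (195 to 190) and Cx3cl1 (6 to 1), against 13.6%. Cxcl12 held none of these letters, and Cxcl5, Cxcl11 and Cxcl16 were not looked at. Both strands were searched, and a match is a run of letters, not a site known to be used. Of the ligands with the NF-κB letters, Cxcl2 and Cxcl10 were called higher and Cxcl1 was not called. Cxcl2 and Cxcl10 passed the filter only through their senescent libraries and so had to differ. Their calls therefore say nothing about the motif.

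**Figure D3:**
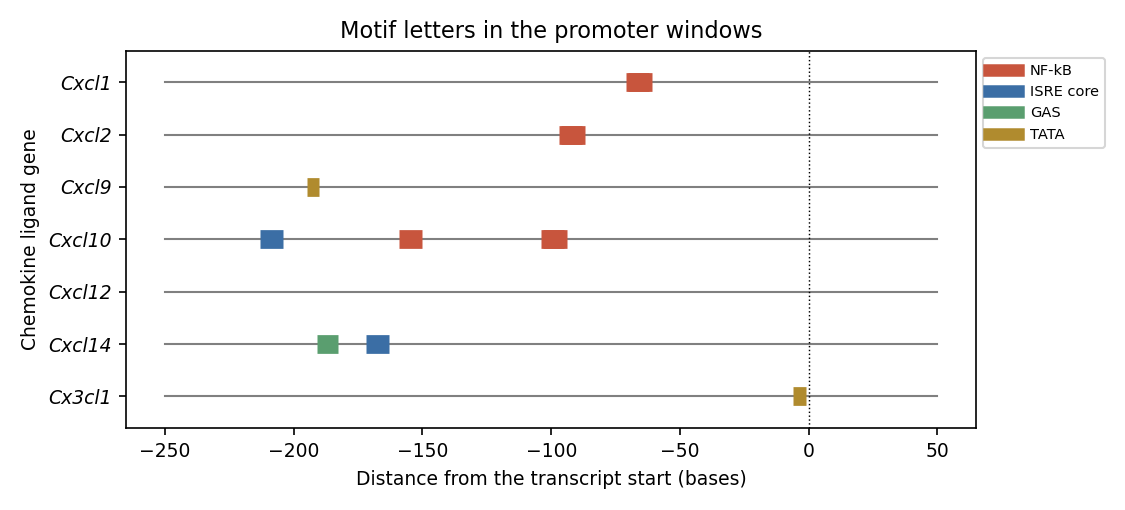
Positions of motif letters in 7 ligand promoters, from 250 bases before to 50 bases after the transcript start. Each grey line is a promoter, the x axis gives the distance from the start in bases, and colored blocks are matches to NF-κB, ISRE core, GAS (gamma-activated site) and TATA letters. Cxcl10 holds 1 ISRE core and 2 places matching NF-κB, Cxcl1 and Cxcl2 hold 1 place each, and Cxcl12 holds none.

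Cxcl12 and Cxcl14 were the most abundant ligands of FAPs by mean level, although per kilobase of exon Cxcl12 overlapped Cx3cl1 in control FAPs. Cxcl12 and Cxcl14 went in opposite directions by their means, but neither difference was robust. Cxcl12 (chromosome 6, 117168535-117181367, plus strand) was at 295, 158 and 422 CPM in control FAPs and at 182, 112 and 122 CPM in senescent FAPs. Control replicate 2 lay below senescent replicate 1, and the control libraries spread widely. The mean went from 292 ± 132 to 138 ± 37.8 CPM, a fall of 0.99 on the log2 scale (SE 0.34) that passed the test narrowly (limma adjusted p = 0.0462). Every same-numbered pair was lower in the senescent culture, by -0.70, -0.49 and -1.79. The call was lost in 9 of 18 alternatives, among them division by plain library totals (-0.78, limma adjusted p = 0.0921) and leaving out control replicate 1 (limma adjusted p = 0.103), control replicate 3 (-0.67, 0.124), senescent replicate 2 (0.145) or senescent replicate 3 (0.137). Without control replicate 2 the fall was 1.38 (limma adjusted p = 0.00183), and the direction was the same in all 18.

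Cxcl14 (chromosome 13, 56288643-56296551, minus strand) was at 178, 159 and 188 CPM in control FAPs and at 417, 184 and 246 CPM in senescent FAPs. Control libraries were close together, senescent replicate 1 stood high, and senescent replicate 2 lay between controls 1 and 3, so the groups overlapped. The means were 175 ± 14.4 and 282 ± 121 CPM, and the difference of 0.61 (SE 0.26) did not pass (limma adjusted p = 0.0931, interval -0.000995 to 1.22). With the replicate number as a block, which assumes that same-numbered cultures belong together, the same difference passed (limma adjusted p = 0.0283). All 3 senescent cultures were above their same-numbered control, by 1.22, 0.20 and 0.39. Without senescent replicate 2 it passed too (0.87, limma adjusted p = 0.0263), and without senescent replicate 1 it was 0.28 and did not (limma adjusted p = 0.151). Plain library totals (0.82, limma adjusted p = 0.0322) and DESeq2 on the recovered reads (0.73, DESeq2 adjusted p = 0.0127) also brought a call. Array weights reduced the difference to 0.23 (limma adjusted p = 0.325). Thy1, a surface glycoprotein of stromal cells, was highest in the number 1 cultures of both groups (489, 41.3 and 61.6 CPM in control and 615, 70.9 and 73.6 CPM in senescent FAPs).

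The transmembrane ligands Cxcl16 and Cx3cl1 moved in opposite directions with little spread, and their calls stood in all 18 alternatives. Cxcl16 (chromosome 11, 70453983-70459984, minus strand) was at 4.44, 5.74 and 5.39 CPM in control FAPs and at 15.1, 16.2 and 16.5 CPM in senescent FAPs. The lowest senescent library was more than double the highest control. Relative to its SE, the change of Cxcl16 was the largest among the ligands. The mean went from 5.19 ± 0.672 to 15.9 ± 0.740 CPM, a ratio of 3.07 and a rise of 1.54 (SE 0.13, limma adjusted p = 2.52e-04), and leaving out single libraries moved it only between 1.44 and 1.61. Of its 3021 exonic bases, 552 are shared with Zmynd15 on the opposite strand, which was called higher as well (0.408 to 1.42 CPM, a difference of 1.08). Per kilobase, Zmynd15 went from 0.0926 to 0.321 CPM and Cxcl16 from 1.72 to 5.27 CPM. The leukocyte markers above rose with Cxcl16 too, a ligand that macrophages also make, and their part was not tested.

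Cx3cl1 (chromosome 8, 94772009-94782427, plus strand), which tethers CX3CR1+ monocytes as a membrane protein and attracts them once shed, was at 105, 116 and 88.0 CPM in control FAPs and at 53.5, 37.2 and 39.0 CPM in senescent FAPs. All senescent libraries were below all control libraries. The mean went from 103 ± 13.9 to 43.2 ± 8.96 CPM, or 0.421 of the control level, and the fall was 1.25 on the log2 scale (SE 0.16, limma adjusted p = 8.68e-04). It was -1.41 to -1.15 when single libraries were left out and -1.04 with plain library totals. Per kilobase of exon, Cxcl16 was 0.0551 to 0.0796 times Cx3cl1 in control FAPs and 0.367 to 0.568 times in senescent FAPs, a ratio chosen after the values were seen.

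Genes for shedding and cleavage of chemokines were called higher in 5 and lower in 3 of 14 cases (median difference 0.27). The shares over all genes tested were 21.8% higher and 24.3% lower. The sheddase Adam17 fell by 0.29 (79.4 ± 5.67 to 64.8 ± 2.97 CPM), whereas Rhbdf2 (iRhom2), which carries ADAM17 to the cell surface and controls its activity, rose by 1.56 (2.61 ± 0.375 to 8.66 ± 0.849 CPM). Adam10, which sheds Cx3cl1 and Cxcl16 in resting cells, was not called (-0.30, limma adjusted p = 0.0797). Proteases that can clip soluble chemokines included Mmp9, which rose by 1.27 from 0.535 ± 0.0964 CPM, and the lysosomal cathepsins Ctsb and Ctsk, which rose by 0.70 and 0.33. Mmp2 rose by 0.61 and Mmp14, which activates it, fell by 0.48. Dpp4, which inactivates Cxcl10 and Cxcl12 by removing their first residues, was at 0.742 to 2.64 CPM in control and 1.01 to 2.07 CPM in senescent FAPs and was not called.

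Levels of different ligands were compared as CPM per kilobase of exon (the union of all annotated exons). In control FAPs the order was Cxcl14 (95.7), Cxcl12 (35.7), Cx3cl1 (26.2), Cxcl1 (9.09), Cxcl5 (8.94), Cxcl16 (1.72), Cxcl2 (0.0644), Cxcl10 (0.0507) and Cxcl9 (0.0462). Neighbors whose libraries overlapped were Cxcl12 with Cx3cl1, Cxcl1 with Cxcl5, and the last 3 with each other. In senescent FAPs it was Cxcl14 (154), Cxcl12 (16.9), Cx3cl1 (11.0), Cxcl5 (7.99), Cxcl1 (6.42), Cxcl16 (5.27), Cxcl10 (1.11), Cxcl9 (0.380) and Cxcl2 (0.347). Here Cx3cl1, Cxcl5, Cxcl1 and Cxcl16 overlapped from neighbor to neighbor, as did Cxcl9 and Cxcl2, so the gap between Cxcl16 and the ligands above it in control FAPs was no longer seen. With the longest coding transcript of each gene as its length, an alternative chosen after the values were seen, Cxcl14, Cxcl12 and Cx3cl1 held ranks 1, 2 and 3 in both groups, and Cxcl5 and Cxcl16 were again apart in senescent FAPs. The coding transcripts of Cxcl12 run from 1878 to 5627 bases, and with the shortest it reached 155 CPM per kilobase in control FAPs, above Cxcl14 (95.7) but with overlapping libraries. The order of these top 2 in control FAPs thus depends on the length used, while in senescent FAPs Cxcl14 was first and apart with each length tried.

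As a share of the summed CPM per kilobase of the 9 ligands, Cxcl14 made up 52.8%, 58.9% and 51.4% in control FAPs and 78.3%, 70.3% and 76.0% in senescent FAPs, so that its shares were apart where its CPM overlapped. Cxcl12 made up 13.0% to 25.8% in control and 7.63% to 9.57% in senescent FAPs. Cx3cl1 went from 11.2% to 19.9% down to 4.68% to 6.63%, and Cxcl16 from 0.796% to 1.29% up to 1.71% to 3.76%. Cxcl9 and Cxcl10 together stayed under 1% in both groups (0.551% to 0.839% in senescent FAPs). The shares are not independent of each other, since a fall of one raises the others. The ratio of Cxcl14 to Cxcl12 was 1.99 to 4.52 in control and 7.34 to 10.3 in senescent FAPs. With the shortest Cxcl12 length the Cxcl14 share was 26.3% to 38.8% in control and 50.5% to 59.9% in senescent FAPs, still apart.

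**Figure D4:**
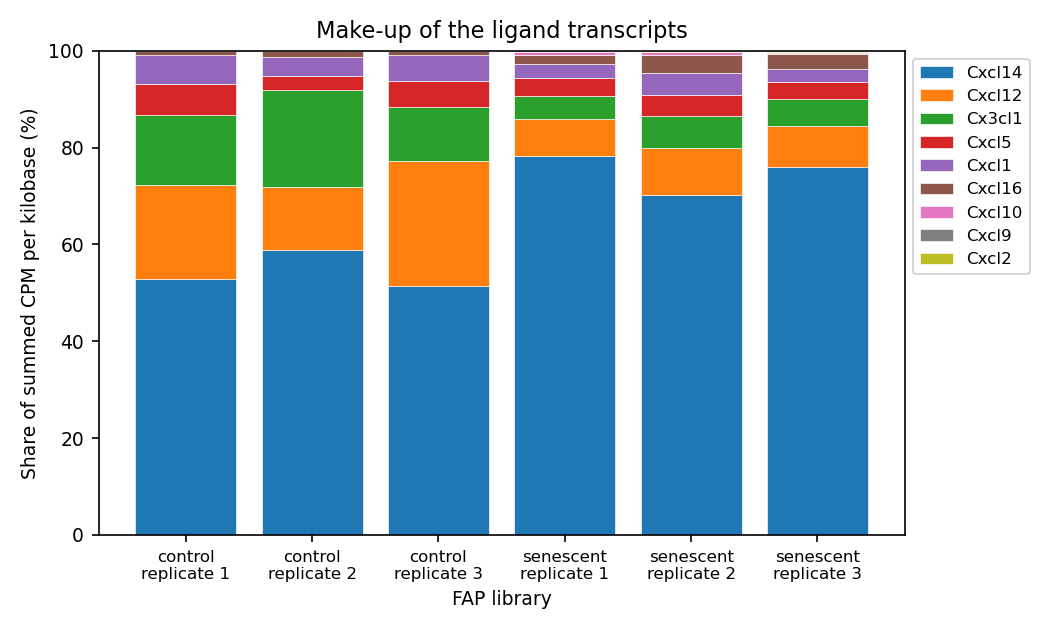
Share of each ligand in the summed CPM per kilobase of exon of the 9 ligands, in percent, for the 3 control and 3 senescent FAP libraries. Each bar is a library and each color a gene. Cxcl14 takes 51.4% to 58.9% of the control bars and 70.3% to 78.3% of the senescent bars, while the Cxcl12 and Cx3cl1 segments are smaller in every senescent bar.

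Receptors for these ligands were expressed in FAPs to different degrees, and none of Ackr3, Cxcr4, Cxcr6 and Cx3cr1 was called. Ackr4, listed with them, was called higher (1 of 5 tested, against 21.8% of all genes tested). Ackr3 (CXCR7), a scavenging receptor that removes Cxcl12, was the most expressed at 82.4, 33.1 and 76.8 CPM in control and 81.6, 67.4 and 68.4 CPM in senescent FAPs, with control replicate 2 again low (difference 0.28, limma adjusted p = 0.498). Cxcr4, the signaling receptor of Cxcl12, was at 7.40 ± 0.757 and 8.38 ± 1.81 CPM (0.15, interval -0.26 to 0.56). Cxcr6, the receptor of Cxcl16, was at 21.5 ± 7.02 CPM in control and 17.7 ± 3.24 CPM in senescent FAPs, which overlapped (-0.25, interval -0.81 to 0.32). Cx3cr1, the receptor of Cx3cl1 and a marker of myeloid cells, stayed near 0.5 CPM (0.457 ± 0.308 and 0.517 ± 0.469). The receptor called higher was Ackr4, a scavenger mainly of CC chemokines (1.44, SE 0.23, limma adjusted p = 0.00215). It was at 0.0670, 0.285 and 0.197 CPM in control and 1.11, 1.07 and 1.96 CPM in senescent FAPs. Ackr4 passed the filter only through the senescent libraries and so had to differ. Cxcr1, a neutrophil receptor, had no read in the control libraries, where the floor of 3 reads is 0.0539 to 0.0670 CPM, and 10, 11 and 13 reads in the senescent libraries, too few to be tested. Cxcr2, Cxcr3, Cxcr5, Ackr1, Ackr2 and Gpr182 were not analysed here.

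Downstream of the receptors, G-protein signaling genes were called higher and lower in equal number, 7 each of 33 tested (median -0.10). For this and the lists that follow, the shares over all genes tested were 21.8% higher and 24.3% lower. The inhibitory G-protein subunit Gnai1 rose by 1.40, Rgs5, which shortens G-protein signals, by 1.54 and the adhesion adaptor Pxn by 0.45, while the receptor kinase Grk6, which desensitizes CXCR4, fell by 0.89. Genes of mRNA stability, which set how long chemokine transcripts last, were called lower in 4 and higher in 1 of 12 cases (median -0.20). The genes called lower were the AU-rich element binding proteins Hnrnpd (AUF1; -1.07) and Khsrp (-0.75), the splicing factor Srsf1 (-0.82) and the kinase Mapkapk2 (-0.42), and Rc3h1 (Roquin), a repressor of inflammatory mRNA, was the one called higher (0.40). Glycosaminoglycan genes, whose products hold chemokines on the cell surface, were called higher in 4 and lower in 5 of 18 cases (median -0.12). Sulf2, which removes sulfate groups from heparan sulfate, rose by 1.16 and the syndecan Sdc1 by 0.47, while the matrix proteoglycan Hspg2 (perlecan) fell by 0.85 and the chain-building enzyme Ext2 by 0.41. The balance of directions over the lists depended on the scaling. Over all lists, 28 genes were called higher and 24 lower, and with plain library totals 41 and 10.

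**Figure D5:**
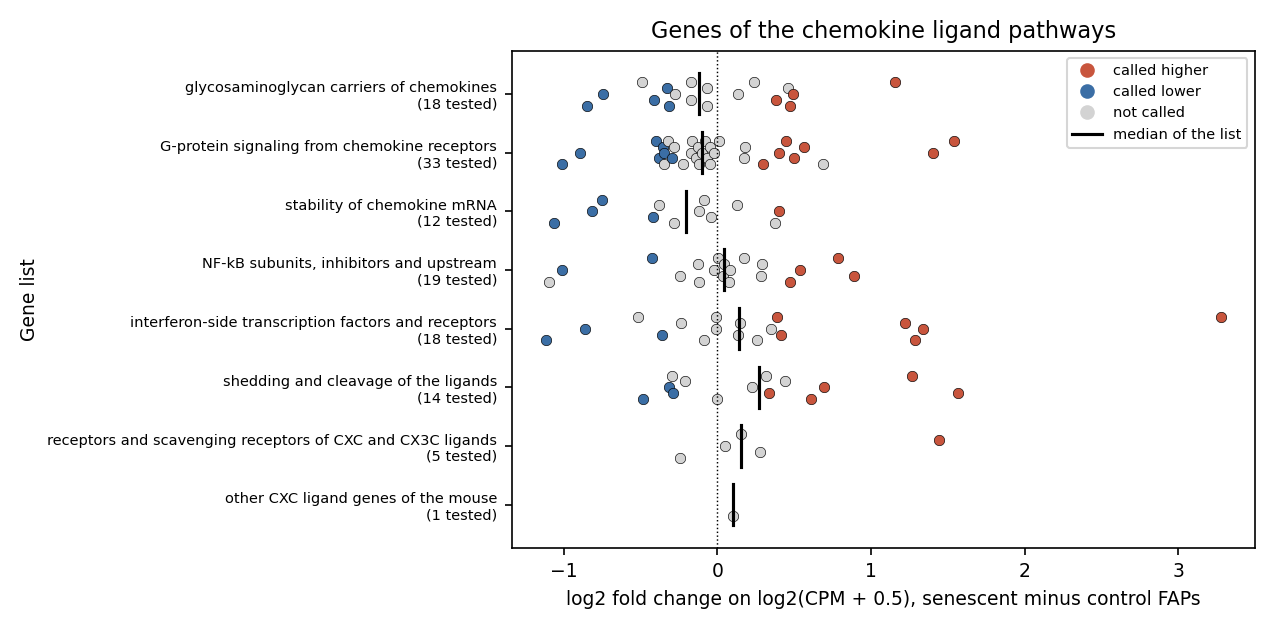
Log2 difference between senescent and control FAPs on log2(CPM + 0.5) for the tested genes of each list around the chemokine ligands. Each point is a gene, red if called higher, blue if called lower and grey if not called, and black bars are list medians. The medians lie between -0.20 and 0.27, and the point farthest right is Irf7 at 3.28.

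The genes whose profile over the 6 libraries was most like that of each ligand were found by the root mean square difference of their centered log2 values. For Cxcl16 they were Trim7 (0.05), Ogdhl and Rhbdf2 (0.07), the last also a gene of the shedding list. For Cx3cl1 they were Cdkn2d (0.07), an inhibitor of cyclin-dependent kinases, Chst2 and the fibronectin receptor chain Itga5. Cxcl10 was closest to Mx2 (0.18), an interferon-induced GTPase that went from 0.0223, 0.0190 and 0.108 CPM to 3.32, 1.81 and 1.64 CPM, followed by Dchs1 and Gm7361. Cxcl9 was closest to Galnt15 (0.13), Npr1 and Gimap6, and Cxcl2 to Vamp1 (0.07), Rab3d and AA415398. This scale understates changes of ligands with few reads, so genes like Cxcl2, Cxcl9 or Cxcl10 here need not share their fold. The ratio of means was 5.39 for Cxcl2, whereas Vamp1 went from 2.86, 2.74 and 2.87 CPM to 6.02, 5.62 and 6.62 CPM. For Cxcl12 the closest genes were Adamts2 (0.15), a procollagen peptidase, Cyb5r2 and Ankrd55. The genes nearest Cxcl14 were the transcripts A330069E16Rik (0.16), A630052C17Rik and 1810041L15Rik. Cxcl5 was nearest to Col9a2 (0.13), Rtn4rl1 and Fndc1, and Cxcl1 to Adamts3 (0.11) and Kcne4, besides a row carrying a microRNA gene's name, for which no value is given. The likeness covers these 6 libraries in 2 groups and says nothing of shared function.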

How the data were processed

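RNA from 3 control and 3 senescent FAP cultures was sequenced on an Illumina instrument after stranded mRNA library preparation. The authors deposited a signal, CPM on the effective library size of edgeR (3.10, in R 3.6.0), with 1 value per gene and library. The submitters' processing notes name the build mm10; the aligner, the counting tool, the annotation and the filter on low counts are not given in the sources used here. Columns were matched to samples by name, and 0 value columns belonged to no sample. Every value was a whole multiple of 1 read (tolerance 0.02), so counts of reads were recovered for 100% of values. Column sums ran from 919819 to 1090570, with scaling factors of 0.917 to 0.940 in control and 1.07 to 1.09 in senescent libraries. 1 row naming no gene (0.0041% to 0.0070% of reads) was left out.

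Differences in log2(CPM + 0.5) were tested with limma 3.58.1 in R 4.3.3, with a variance trend, two-sided, with Benjamini-Hochberg adjustment over the 14776 genes with 0.5 CPM or more in at least 3 libraries. The plan assumed CPM, and the same test was kept for the signal. The script was tested on simulated data. Same-numbered cultures deviated together from their group means (correlations of 0.537, 0.308 and 0.207 over 14776 genes). Differently numbered cultures gave -0.357 to 0.153, the highest for control 2 with senescent 3. The sources used here state no pairing, so pairing by number is an assumption. A fit with the number as a block is given where it changes a call. The alternatives were other pseudocounts, filters, scalings and weights, no trend, leaving out each library, the block, and, for the recovered reads, DESeq2 1.42.0 and edgeR 4.0.16. Ligands and gene lists were chosen with earlier results of these data known. Named genes were the ligands, up to 4 genes of each list with the smallest p among those called, every receptor, marker genes, 3 like genes per ligand, and Cdkn1a and Mki67; other named genes (Irf1, Irf5, Ifnar1, Socs3, the interferon-γ receptor chains, Nfkb1, Rela, Rel, Il1r1, Adam10, Adam17, Mmp2, Mmp14, Dpp4, Rc3h1, Cxcl3, Ppbp, Art3 and Zmynd15) were added after their values were seen. A gene counted in the list totals is not reported here by name. Promoters are RefSeq's (GRCm38.p6), held for 7 of the 10 ligands. Gene positions and exon lengths are from GENCODE M21 (GRCm38), matched by symbol.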

Additional observations from a re-analysis of the deposited data

How the results depend on the processing

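The number of ligands called lower, which turns on Cxcl12, changed by over 1.5 times in most of the 18 alternatives, and the other counts in few. Plain library totals gave 4992 genes higher and 1929 lower (72.1% higher, against 47.3%), shifting the median of all genes from -0.03 to 0.17, and 10 list genes lower. For the ligands, a filter at 2 CPM left 1 called higher, since it removes Cxcl2, Cxcl9 and Cxcl10, and 1 called lower. The number of ligands called lower was also 1 with median-of-ratios factors, quantile normalization, plain library totals and no variance trend, each through the loss of Cxcl12, and 4 with array weights, which added Cxcl1 and Cxcl5. Array weights gave 44 list genes lower. With single libraries left out, genes called higher ranged from 2130 (without senescent replicate 2) to 3405 and lower from 2416 to 3875, ligands higher from 4 to 5 and lower from 1 to 3, and list genes higher from 20 to 29 and lower from 12 (without senescent replicate 2) to 32. Except where stated, the cause was not tested. With the replicate block, 3576 genes were called higher and 3947 lower, and 5 and 2 ligands. The block changed the call of Cxcl14 (adjusted p = 0.0283 with limma) and of no other ligand. Pik3ca turned to 0.19 with plain library totals and Timp3 to 0.75 with quantile normalization. Over the 120 tested list genes, 100 values lost and 82 gained a call.

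Depth limits Cxcl2, Cxcl9 and Cxcl10, which rest on 2 to 8 reads per control library, so the size of their fold depends on the pseudocount (Cxcl10 1.58 to 3.52 with limma). Intervals and floors cover counting or culture spread only, and 3 cultures a group leave changes like those of Cxcl1, Cxcl5 and Cxcl14 unresolved.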
